A study of Mus musculus with 6 samples.

Results

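Mouse mitochondrial DNA (mtDNA) carries 37 genes, and all 37 were found among the 55335 gene identifiers measured. They were taken by symbol, as every identifier that the GRCm38 annotation names with the prefix mt-, and no measured value entered the choice. The set holds 13 protein genes, 2 ribosomal RNA (rRNA) genes and 22 transfer RNA (tRNA) genes. Expression was measured by RNA sequencing in 6 libraries labelled bEnd.3, an immortalised mouse line of brain endothelial origin with the genotype label WT. The 3 Mito-T libraries came from cells kept for 24 h with mitochondria isolated from primary mouse astrocytes and taken up in 100 µl of medium. The 3 Ctrl libraries came from cells given that volume of medium without mitochondria. The labels give neither the amount of mitochondria nor the strain of the donor mice. They do not say that replicates were grown separately, so the p-values speak only for the spread among these 6 libraries, which may be technical. Donor and recipient are both mouse, and values summed per gene do not separate their mtDNA transcripts.

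Mitochondria keep a small circular genome whose proteins are core subunits of 4 of the 5 complexes of oxidative phosphorylation: the NADH dehydrogenase (complex I), the cytochrome bc1 complex (complex III), cytochrome c oxidase (complex IV) and the ATP synthase (complex V). Both strands are transcribed from end to end into long precursors by the polymerase POLRMT with TFAM and TFB2M. The tRNAs, which lie between the other genes, are cut out by nucleases, and this frees the mRNAs and rRNAs. The rRNAs and tRNAs serve the organelle's own ribosomes, so mtDNA supplies the RNA parts of the machine that translates its mRNAs and the nucleus supplies every protein part. In brain endothelium, mitochondria are known for their role in keeping the barrier supplied with energy.

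Levels are given as FPKM, which set the fragments of a gene against its length and the size of the library. The headers name no unit, and this reading rests on the values. The FPKM implied 21800000 to 27200000 fragments in the Mito-T libraries and 17000000 to 21100000 in the Ctrl libraries. By this estimate every Mito-T library was deeper than every Ctrl library, with a narrow margin between Mito-T 2 and Ctrl 3. Among 14 endothelial markers, 8 stayed under 1 FPKM in every library. Cdh5, the cadherin of endothelial junctions, averaged 0.0433 FPKM in Mito-T cells and 0.0259 FPKM in Ctrl cells. Pecam1, the adhesion molecule CD31, averaged 0.163 FPKM in Mito-T cells and 0.215 FPKM in Ctrl cells. Both defining markers were thus under 1 FPKM, while Kdr, Flt1, Tie1, Eng, Egfl7 and Ly6c1 were at 1 FPKM or more. The 14 summed to 89.2 to 98.4 FPKM in Mito-T libraries and 87.6 to 97.6 FPKM in Ctrl libraries. Eng held most of this sum, with means of 63.1 FPKM in Mito-T cells and 59.0 FPKM in Ctrl cells. Kdr and Flt1 were lower in every Mito-T library than in any Ctrl library, beside 11.4% of all genes tested further on. Kdr averaged 3.00 FPKM in Mito-T cells and 3.94 FPKM in Ctrl cells, and Flt1 7.75 FPKM in Mito-T cells and 10.0 FPKM in Ctrl cells. The cells are called by their line below. The 8 listed fibroblast and mural markers summed to 156 to 166 FPKM in Mito-T libraries and 211 to 233 FPKM in Ctrl libraries. Col1a1, a collagen chain, averaged 83.9 ± 3.19 FPKM in Mito-T cells and 138 ± 2.45 FPKM in Ctrl cells (SD, n = 3 each) and held most of this difference. Pdgfra and Acta2 were higher in every Mito-T library than in any Ctrl library, beside 9.62% of all genes tested further on. Col1a1 was lower in every Mito-T library, beside 11.4% of all genes tested. Pdgfrb averaged 51.7 ± 4.89 FPKM in Mito-T cells and 59.8 ± 10.6 FPKM in Ctrl cells, with overlap. Col1a2, Dcn, Lum and Rgs5 stayed under 1 FPKM throughout. The part of these markers in the mtDNA values was not tested. Astrocyte markers were sought as a trace of donor cells. Aqp4, the astrocyte water channel, was listed at 0 in all 6 libraries, and Gfap, the astrocyte filament protein, averaged 0.128 FPKM in Mito-T cells and 0.0771 FPKM in Ctrl cells. The summed level of 18 astrocyte markers was 49.3 to 54.2 FPKM in Mito-T libraries and 33.6 to 69.5 FPKM in Ctrl libraries, with 12 of them under 1 FPKM throughout. The gap junction gene Gja1 was the highest of the 18 by mean in both groups, at 23.5 to 25.8 FPKM in Mito-T libraries and 11.7 to 46.0 FPKM in Ctrl libraries. Aldh1l1, a folate enzyme of astrocytes named after its values were seen, had 0.972, 1.15 and 1.06 FPKM in Mito-T libraries, against 0.416, 0.455 and 0.302 FPKM in Ctrl libraries. Aldoc, by a narrow margin, and Slc1a2 also had no overlap, with Mito-T higher, beside 9.62% of all genes tested further on. Slc1a2 lay at 0.0127 to 0.169 FPKM over the 6 libraries. Slc1a2 and Aldh1l1 did not reach 1 FPKM in 3 libraries, so they are not among the genes tested. Gja1, Slc1a3, Fgfr3, Atp1b2, S100b and Cldn10 had lower means in Mito-T cells, with overlap. No donor trace is read from these markers. Of 6 listed microglia markers, 5 stayed under 1 FPKM throughout. The other, Tmem119, averaged 191 ± 14.1 FPKM in Mito-T cells and 241 ± 26.6 FPKM in Ctrl cells (SD, n = 3 each). Its values were lower in every Mito-T library than in any Ctrl library, beside 11.4% of all genes tested further on. Also under 1 FPKM throughout were 5 of 6 neuron markers and all 6 oligodendrocyte markers. The part of these markers in the mtDNA values was not tested.

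The mtDNA genes were among the most abundant transcripts of both groups. Together the 37 genes held 11.5%, 11.2% and 10.5% of all FPKM in Mito-T libraries 1 to 3, against 10.2%, 10.8% and 10.5% in Ctrl libraries 1 to 3. Their summed level was 32039 ± 1640 FPKM in Mito-T cells and 30374 ± 765 FPKM in Ctrl cells (SD, n = 3 each). The groups overlapped, since Mito-T 3 lay below Ctrl 1 and Ctrl 2. Between 10 and 11 of the 20 highest rows of a library were mtDNA genes. With bulk RNA on a relative scale, a different mix of cells, more mitochondria per cell and more RNA per mitochondrion cannot be told apart.

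**Figure D1:**
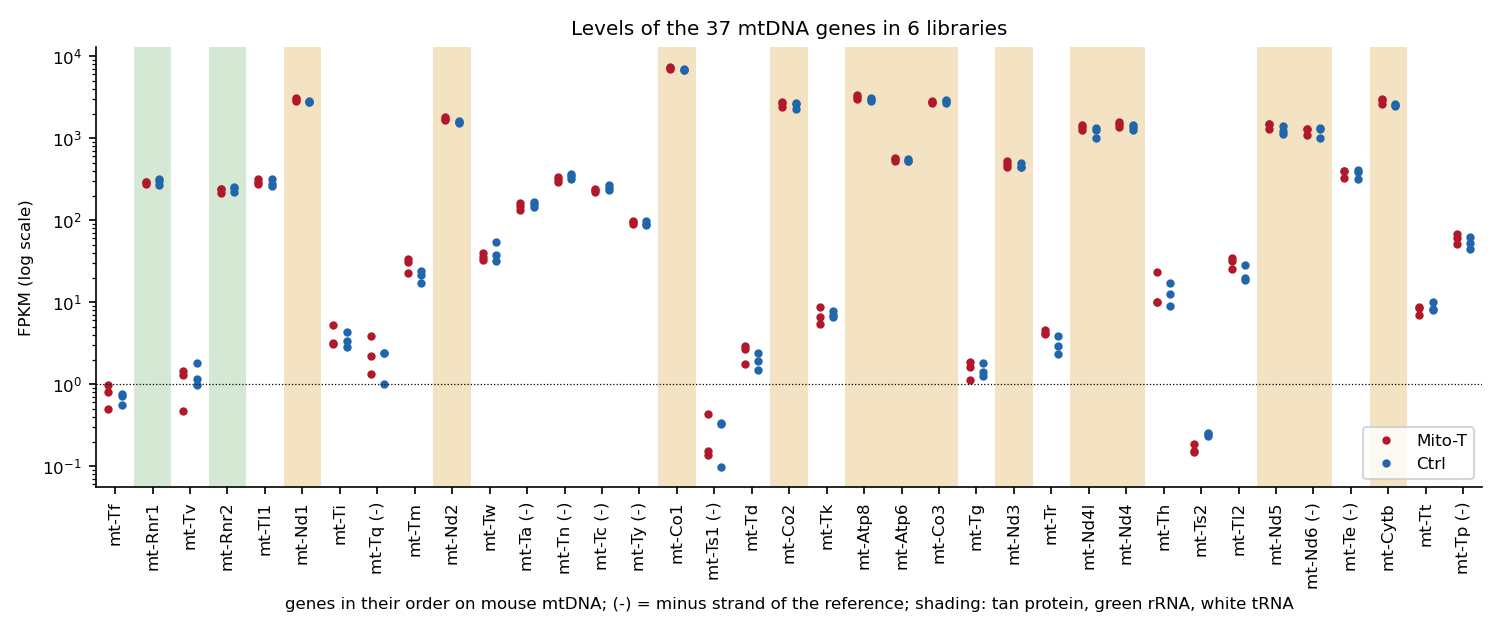
FPKM of the 37 mtDNA genes on a log axis, in their order on the mtDNA, with 1 point per library (Mito-T left of Ctrl for each gene) and a dotted line at 1 FPKM. Protein genes stand highest, led by mt-Co1 at 6780 to 7390 FPKM, the rRNA genes lie between 216 and 317 FPKM, and tRNA genes span from under 1 to 414 FPKM.

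The plot of levels in gene order separates the 3 classes. Protein genes summed to 29852 ± 1488 FPKM in Mito-T cells and 28159 ± 617 FPKM in Ctrl cells. The 2 rRNA genes summed to 524 ± 25.6 FPKM in Mito-T cells and 535 ± 38.7 FPKM in Ctrl cells. The 22 tRNA genes summed to 1663 ± 130 FPKM in Mito-T cells and 1680 ± 123 FPKM in Ctrl cells (SD, n = 3 each throughout). None of the 3 sums separated the groups. Of the 37 genes, 28 lie on the plus strand of the reference and 9 on the minus strand, which are mt-Nd6 and 8 tRNA genes. Minus-strand genes summed to 2456 ± 200 FPKM in Mito-T cells and 2487 ± 279 FPKM in Ctrl cells, and plus-strand genes to 29583 ± 1441 FPKM in Mito-T cells and 27887 ± 525 FPKM in Ctrl cells. The library kit keeps the strand of the RNA, but the sources used here do not say whether the quantification used it, so RNA of the opposite strand may be included in any of these values.

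The groups were compared with limma on log2(FPKM + 1), over the 12639 genes that reached 1 FPKM in 3 libraries or more. Of the 37 mtDNA genes, 34 entered the test, and the tRNA genes mt-Tf, mt-Ts1 and mt-Ts2 were too low. With limma and Benjamini-Hochberg adjustment, 0 of the 34 were called at an adjusted p under 0.05, beside 1.12% of all genes tested (0.467% with Mito-T higher and 0.649% with Mito-T lower). An unadjusted limma p under 0.05 was met by 3 of the 34 (8.82%), all tRNA genes that were higher in Mito-T cells, beside 13.9% of all genes tested (6.58% with Mito-T higher and 7.32% with Mito-T lower). The groups did not overlap for 3 of the 34 (mt-Nd2, mt-Co1 and mt-Tr), with Mito-T higher in each, beside 21.0% of all genes tested in either direction, 9.62% with Mito-T higher and 11.4% with Mito-T lower. The mtDNA genes were thus not called or separated more often than the table as a whole, apart from unadjusted p in the higher direction, where 3 genes make the share. The median log2 change of the 34 genes was 0.06, against -0.01 over all genes tested.

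**Figure D2:**
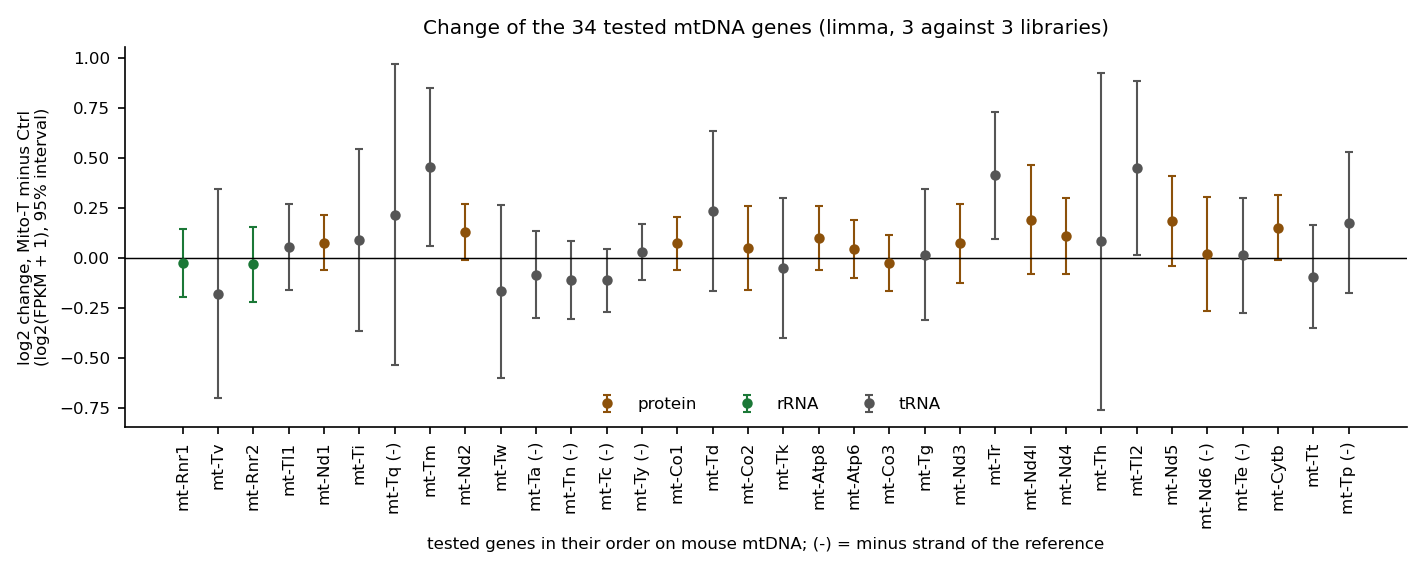
Log2 change (Mito-T minus Ctrl, log2(FPKM + 1)) of the 34 tested mtDNA genes in their order on the mtDNA, with limma's 95% interval and the class given by colour. Intervals of all protein and rRNA genes include 0, and those of the tRNA genes mt-Tm, mt-Tr and mt-Tl2 lie above 0 before adjustment.

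Of the 13 protein genes, 12 had a positive log2 change, beside 48.0% of all genes tested, and 0 were called. Their median change was 0.08 and the highest was 0.19, for mt-Nd4l. These genes share precursor RNAs and libraries, so they are not 13 separate observations. The plot of changes in gene order shows that the intervals of the protein genes reached from -0.26 for mt-Nd6 to 0.46 for mt-Nd4l.

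Levels of the protein genes over all 6 libraries fell into 4 tiers that did not overlap. The first was mt-Co1 alone. The second ran over mt-Atp8, mt-Nd1, mt-Co3, mt-Cytb and mt-Co2, from 2284 to 3363 FPKM, and neighbours in this order overlapped. The third held mt-Nd2, mt-Nd4, mt-Nd5, mt-Nd4l and mt-Nd6, from 1010 to 1801 FPKM, again with overlap between neighbours. The lowest was mt-Atp6 with mt-Nd3, from 440 to 569 FPKM. The order does not follow the order of the genes on the mtDNA. For mt-Co2, mt-Atp6, mt-Co3, mt-Nd3 and mt-Nd4l, nearly all sequence is also annotated in the nucleus, as described below, so their absolute place is uncertain.

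Complex I, which passes electrons from NADH to ubiquinone, takes 7 of its membrane subunits from mtDNA. Their summed level was 10672 ± 634 FPKM in Mito-T cells and 9893 ± 499 FPKM in Ctrl cells (SD, n = 3 each), and the groups overlapped. None was called, and their nuclear partners are given further on.

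mt-Nd1 (chrM:2751-3707), a subunit beside the ubiquinone site, stood at 3065, 2983 and 2831 FPKM in Mito-T libraries 1 to 3, against 2801, 2869 and 2750 FPKM in Ctrl libraries 1 to 3. Mito-T 3 lay below Ctrl 2, so the groups overlapped, and the log2 change was 0.08 (95% interval -0.06 to 0.21). mt-Nd2 (chrM:3914-4951), one of the proton-pumping subunits, stood at 1801, 1738 and 1670 FPKM in Mito-T libraries, against 1532, 1637 and 1592 FPKM in Ctrl libraries. All 3 Mito-T values were above all 3 Ctrl values, with a log2 change of 0.13 (95% interval -0.01 to 0.27) and an adjusted limma p of 0.394.

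mt-Nd3 (chrM:9459-9806), a small subunit with a loop near the ubiquinone site, had 529, 490 and 450 FPKM in Mito-T libraries, against 505, 450 and 440 FPKM in Ctrl libraries. In each group library 1 was highest and library 3 lowest, and the log2 change was 0.07 (95% interval -0.13 to 0.27). mt-Nd4l (chrM:9877-10173) had 1463, 1364 and 1243 FPKM in Mito-T libraries, against 1010, 1321 and 1246 FPKM in Ctrl libraries. Ctrl 1 was below the other 5, and without it the log2 change of mt-Nd4l was 0.08, against 0.19 (95% interval -0.08 to 0.46) with all libraries. mt-Nd4 (chrM:10167-11544), a proton-pumping subunit, had 1559, 1500 and 1361 FPKM in Mito-T libraries, against 1385, 1455 and 1259 FPKM in Ctrl libraries. These groups overlapped too, and the log2 change was 0.11 (95% interval -0.08 to 0.30).

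mt-Nd4l and mt-Nd4 share their RNA: both are read from a single mRNA in different frames. The annotation has 7 bases in common between them, shown here because fragments over this stretch belong to both genes. The capitals mark the shared bases, which open with the start codon of mt-Nd4 and close with the stop codon of mt-Nd4l (GRCm38, chrM:10152-10173, plus strand, from the GENCODE M21 transcripts).
mt-Nd4l and mt-Nd4 overlap: tctcaacctactacaATGCTAA

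With the RNA in common, the ratio of mt-Nd4l to mt-Nd4 FPKM was 0.938, 0.910 and 0.913 in Mito-T libraries and 0.730, 0.908 and 0.989 in Ctrl libraries. Only Ctrl 1 stood apart, and in that library mt-Nd4l was low while mt-Nd4 was within the range of the others.

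mt-Nd5 (chrM:11742-13565), the longest protein gene at 1824 bases and another proton-pumping subunit, had 1500, 1471 and 1309 FPKM in Mito-T libraries, against 1140, 1405 and 1226 FPKM in Ctrl libraries. Ctrl 1 was again lowest, and the log2 change was 0.19 (95% interval -0.04 to 0.41). mt-Nd6 (chrM:13552-14070), the single protein gene on the minus strand, had 1292, 1287 and 1108 FPKM in Mito-T libraries, against 1309, 1326 and 1019 FPKM in Ctrl libraries. Library 3 was lowest in both groups, the groups overlapped, and the log2 change was 0.02 (95% interval -0.26 to 0.30).

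Strand shows in the base composition of these genes. mt-Nd6 mRNA holds 28.1% G and 5.97% C, whereas the 12 plus-strand mRNAs hold 5.88% to 16.1% G and 22.1% to 30.0% C. The 3′ ends of mt-Nd5 and mt-Nd6 overlap by 14 bases on opposite strands. Their last 15 bases and stop codons, in capitals, are given 5′ to 3′ as each gene is read, to show that the facing ends are partly complementary (GRCm38, chrM:13548-13565 on the plus strand and chrM:13552-13569 on the minus strand).
mt-Nd5: tcaattaatctcgagTAA
mt-Nd6: gagattactcgagatTAA

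mt-Cytb (chrM:14145-15288) encodes cytochrome b, the mtDNA subunit of complex III, which passes electrons from ubiquinol to cytochrome c. It had 2936, 2976 and 2622 FPKM in Mito-T libraries, against 2534, 2638 and 2499 FPKM in Ctrl libraries. Mito-T 3 lay just below Ctrl 2, and the other 2 Mito-T libraries were above every Ctrl library. The log2 change was 0.15 (95% interval -0.01 to 0.32), with an adjusted limma p of 0.397. Its sequence is nearly unique, with 6.55% of its 31-base words found in annotated nuclear transcripts.

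Complex IV, which hands electrons to oxygen, has its 3 core subunits from mtDNA, and they summed to 12601 ± 476 FPKM in Mito-T cells and 12204 ± 321 FPKM in Ctrl cells (SD, n = 3 each). mt-Co1 (chrM:5328-6872), the catalytic subunit, was the highest row of the whole table in every library. It had 7390, 7281 and 6951 FPKM in Mito-T libraries, against 6934, 6780 and 6819 FPKM in Ctrl libraries. The lowest Mito-T value was just above the highest Ctrl value, with a log2 change of 0.07 (95% interval -0.06 to 0.21) and an adjusted limma p of 0.623.

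mt-Co2 (chrM:7013-7696), the subunit that receives electrons from cytochrome c, had 2762, 2673 and 2406 FPKM in Mito-T libraries, against 2724, 2582 and 2284 FPKM in Ctrl libraries. Here too library 3 was lowest in both groups, and the log2 change was 0.05 (95% interval -0.16 to 0.26). mt-Co3 (chrM:8607-9390), the third core subunit, had 2788, 2852 and 2699 FPKM in Mito-T libraries, against 2912, 2711 and 2866 FPKM in Ctrl libraries. It was the protein gene with a negative log2 change, -0.03 (95% interval -0.16 to 0.11), and its groups overlapped.

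The 2 mtDNA subunits of complex V, the ATP synthase, summed to 3734 ± 204 FPKM in Mito-T cells and 3505 ± 108 FPKM in Ctrl cells (SD, n = 3 each). mt-Atp8 (chrM:7766-7969), a short subunit of the stator, had 3363, 3182 and 3004 FPKM in Mito-T libraries, against 2828, 3073 and 3013 FPKM in Ctrl libraries. Mito-T 3 lay below 2 Ctrl libraries, and the log2 change was 0.10 (95% interval -0.06 to 0.26). mt-Atp6 (chrM:7927-8607), the subunit that forms the proton channel, had 569, 564 and 521 FPKM in Mito-T libraries, against 558, 522 and 521 FPKM in Ctrl libraries. These values overlapped, and the log2 change was 0.05 (95% interval -0.10 to 0.19).

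Like mt-Nd4l and mt-Nd4, both genes are read from a single mRNA, here with 43 bases in common. The stretch is shown because its fragments can count for either gene, with the start codon of mt-Atp6 and the stop codon of mt-Atp8 in capitals (GRCm38, chrM:7927-7969, plus strand).
mt-Atp8 and mt-Atp6 overlap: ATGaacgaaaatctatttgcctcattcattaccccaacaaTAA

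Although both lie on that mRNA, mt-Atp8 had 5.91, 5.64 and 5.76 times the FPKM of mt-Atp6 in Mito-T libraries and 5.07, 5.89 and 5.79 times in Ctrl libraries. Ctrl 1 gave the lowest ratio. A nuclear gene with the sequence of mt-Atp6 was listed at a higher FPKM, as the next comparison shows.

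Nuclear chromosomes carry copies of mtDNA, and fragments from an mtDNA transcript can be counted for a copy of the same sequence. Of the 37 mtDNA genes, 23 had no 31-base word in any annotated nuclear transcript, 5 had 90% or more of their words there, and 2 had more than 50%. The 5 were mt-Co2 (100%), mt-Co3 (99.9%), mt-Atp6 (99.5%), mt-Nd4l (98.9%) and mt-Nd3 (98.1%), and the 2 were mt-Co1 (63.9%) and mt-Nd4 (62.8%). Among tRNA genes, mt-Ty alone shared any word. Copies were sought in annotated transcripts, and copies between annotated genes were not analysed here.

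A block of 7 pseudogenes on chromosome 1 (chr1:24611535-24616197, minus strand, 4663 bases) accounts for most of the sharing. Together these 7 held 5.11%, 4.99% and 4.70% of all FPKM in Mito-T libraries and 4.88%, 4.86% and 4.75% in Ctrl libraries, on top of the shares of the mtDNA genes given above. All were identical to the mtDNA over their aligned bases except Gm29216, which had 1 substitution near its edge (A1066T, where positions count from the first base of mt-Co1 and the mtDNA base comes first). The first 45 bases of mt-Co2 and of its copy Gm28661 are shown because they cannot be told apart by any read within them (GRCm38, chrM:7013-7057 on the plus strand and chr1:24615521-24615565 on the minus strand).
mt-Co2: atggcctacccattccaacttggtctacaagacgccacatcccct
Gm28661: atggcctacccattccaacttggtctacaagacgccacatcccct

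**Figure D3:**
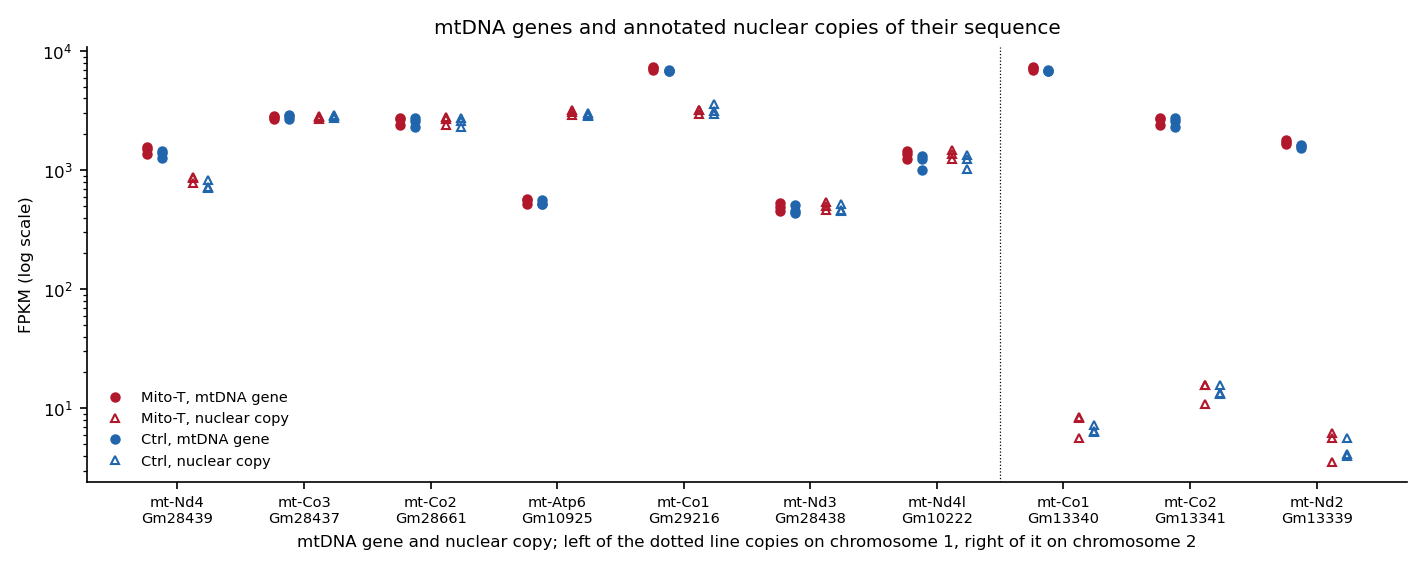
FPKM on a log axis of mtDNA genes (filled circles) and of annotated nuclear copies (open triangles), with 1 point per library and Mito-T left of Ctrl. Copies on chromosome 1 stand at 453 to 3618 FPKM, close to their mtDNA gene in 4 of 7 pairs, and the diverged copies on chromosome 2 at 3.54 to 15.8 FPKM.

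In 4 pairs the copy and the mtDNA gene had nearly equal values in every library. Gm28437 had 1.001 to 1.002 times the FPKM of mt-Co3 over the 6 libraries, and Gm28661 had 1.004 to 1.005 times that of mt-Co2. Gm10222 stood at 1.004 to 1.008 times mt-Nd4l and Gm28438 at 1.02 to 1.03 times mt-Nd3, 2 copies named after their values were seen. Which locus the RNA came from cannot be told apart in these values.

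Where a copy covers part of a gene the ratios differed. Gm28439, with 876 of the 1378 bases of mt-Nd4, had 0.514 to 0.577 times its FPKM, and Gm29216, aligned over 483 bases of mt-Co1, had 0.424 to 0.522 times its FPKM. Gm10925 carries 678 of the 681 bases of mt-Atp6 and had 3181, 3084 and 2925 FPKM in Mito-T libraries, against 3019, 2911 and 2834 FPKM in Ctrl libraries. That is 5.41 to 5.61 times the FPKM of mt-Atp6, so the level listed for mt-Atp6 is the smaller part of the FPKM given to its sequence.

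A second block, on chromosome 2 (chr2:22587291-22590533, minus strand), holds diverged copies. Gm13340 differs from mt-Co1 by 37 substitutions in 1545 aligned bases (97.6% identity). It averaged 7.46 ± 1.58 FPKM in Mito-T cells and 6.68 ± 0.459 FPKM in Ctrl cells (SD, n = 3 each), at most 0.00115 times mt-Co1. Bases 686 to 730 of mt-Co1 are shown beside the copy with the differing bases in capitals, which are G696A, T699C, G717A and C720T (GRCm38, chrM:6013-6057 on the plus strand and chr2:22588918-22588962 on the minus strand). A read over this stretch can be placed, unlike a read of mt-Co2.
mt-Co1: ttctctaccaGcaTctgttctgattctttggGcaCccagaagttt
Gm13340: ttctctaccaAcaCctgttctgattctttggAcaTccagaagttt

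None of the 10 copies at 1 FPKM or more was called between the groups. The smallest adjusted limma p among them was 0.448, for Gm28439, at 840 ± 51.3 FPKM in Mito-T cells and 755 ± 61.5 FPKM in Ctrl cells (SD, n = 3 each). When the values of the copies were added to their mtDNA genes, 0 mtDNA genes were called.

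mt-Rnr1 (chrM:70-1024) and mt-Rnr2 (chrM:1094-2675) encode the small and large rRNAs of the mitochondrial ribosome. mt-Rnr1 had 296, 296 and 278 FPKM in Mito-T libraries, against 317, 297 and 272 FPKM in Ctrl libraries. mt-Rnr2 had 243, 243 and 216 FPKM in Mito-T libraries, against 247, 252 and 219 FPKM in Ctrl libraries. In both genes library 3 was lowest in each group and the groups overlapped, with log2 changes of -0.02 (95% interval -0.19 to 0.14) for mt-Rnr1 and -0.03 (95% interval -0.22 to 0.15) for mt-Rnr2. The ratio of mt-Rnr1 to mt-Rnr2 was 1.21, 1.22 and 1.29 in Mito-T libraries and 1.28, 1.18 and 1.24 in Ctrl libraries. The libraries were made with an mRNA kit, so these levels do not measure how much rRNA the cells held.

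**Figure D4:**
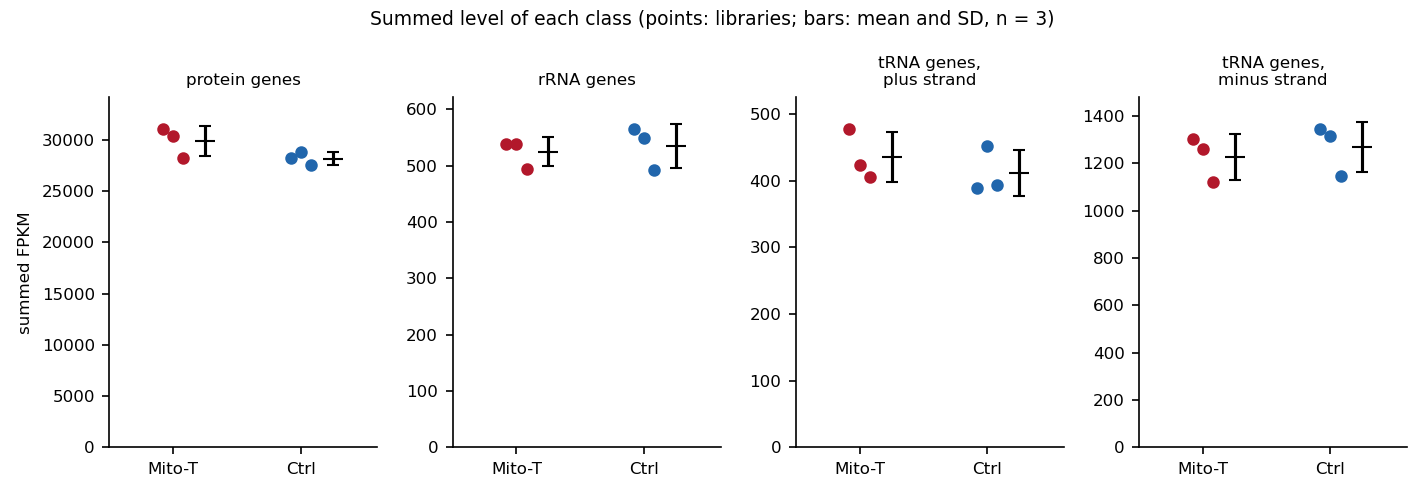
Summed FPKM of the protein genes, the rRNA genes and the tRNA genes of each strand, with 1 point per library (replicates 1 to 3 from left to right) and the mean with SD (n = 3), Mito-T left of Ctrl. The groups overlap in each panel, and replicate 3 is the lowest library of both groups in the protein, rRNA and minus-strand tRNA sums.

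Within the Mito-T group, library 3 was lowest for 34 of 37 mtDNA genes, among them all 13 protein genes. Within the Ctrl group, library 3 was lowest for 21 of 37, and for 7 of 13 protein genes. The plot of class sums shows the same. Without Mito-T 3 the median log2 change of the protein genes was 0.13, and without Mito-T 1 it was 0.06. The coefficient of variation over the 3 libraries of a group had a median of 6.82% in Mito-T cells and 4.31% in Ctrl cells for protein genes, and of 15.1% in Mito-T cells and 16.4% in Ctrl cells for tRNA genes.

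Each mitochondrial tRNA carries 1 amino acid to the ribosome and pairs with the mRNA through its anticodon. Their listed FPKM spanned 3 orders of magnitude and differed by strand. The 8 minus-strand tRNA genes had a median level of 122 FPKM, and 6 of them averaged over 50 FPKM. The 14 plus-strand tRNA genes had a median level of 5.35 FPKM, and 1 of them, mt-Tl1, averaged over 50 FPKM. Minus-strand tRNA genes summed to 1227 ± 96.7 FPKM in Mito-T cells and 1269 ± 107 FPKM in Ctrl cells, and plus-strand tRNA genes to 435 ± 37.1 FPKM in Mito-T cells and 411 ± 34.7 FPKM in Ctrl cells (SD, n = 3 each). tRNA genes are 59 to 75 bases long and rest on few fragments, by estimate from under 1 to 745 a library. By the same estimate, 10 of the 22 were under 10 fragments in some library. Intact tRNAs are shorter than the fragments that mRNA libraries usually hold, and the values do not tell tRNA from uncut precursor.

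The 4 highest tRNA genes are shown with the anticodon in capitals, because they carry most of the tRNA signal and come from both strands (GRCm38, from the GENCODE M21 transcripts, as mt-Te chrM:14071-14139, mt-Tn chrM:5089-5159 and mt-Tc chrM:5192-5257 on the minus strand and mt-Tl1 chrM:2676-2750 on the plus strand). They read glutamate, asparagine, cysteine and leucine codons.
mt-Te: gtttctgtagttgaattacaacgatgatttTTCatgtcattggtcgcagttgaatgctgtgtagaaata
mt-Tn: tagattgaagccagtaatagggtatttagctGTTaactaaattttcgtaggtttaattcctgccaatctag
mt-Tc: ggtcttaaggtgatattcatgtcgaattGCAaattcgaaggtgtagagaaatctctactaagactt
mt-Tl1: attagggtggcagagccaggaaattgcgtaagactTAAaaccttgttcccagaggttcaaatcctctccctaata

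mt-Te, the glutamate tRNA, had 397, 395 and 329 FPKM in Mito-T libraries, against 386, 414 and 315 FPKM in Ctrl libraries. It lies next to mt-Nd6 on the minus strand, and both had the same pattern over libraries: mt-Nd6 stood at 3.20 to 3.39 times the FPKM of mt-Te in all 6. mt-Tn, the asparagine tRNA, had 338, 320 and 296 FPKM in Mito-T libraries, against 371, 345 and 315 FPKM in Ctrl libraries. mt-Tc, the cysteine tRNA, had 239, 233 and 220 FPKM in Mito-T libraries, against 267, 247 and 235 FPKM in Ctrl libraries. In these 2 neighbours the Mito-T values lay toward the low side with overlap, at log2 changes of -0.11 (95% interval -0.30 to 0.08) for mt-Tn and -0.11 (95% interval -0.27 to 0.05) for mt-Tc.

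mt-Tl1, which lies between mt-Rnr2 and mt-Nd1, had 320, 289 and 279 FPKM in Mito-T libraries, against 260, 318 and 278 FPKM in Ctrl libraries. Its level was near that of the rRNA genes before it and far below that of mt-Nd1 after it. mt-Nd1 had 9.57, 10.3 and 10.1 times its FPKM in Mito-T libraries and 10.8, 9.02 and 9.90 times in Ctrl libraries. No other plus-strand tRNA gene exceeded 54.1 FPKM in any library.

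The cluster between mt-Nd2 and mt-Co1 shows the strand difference side by side. On the minus strand mt-Ta, the alanine tRNA, averaged 148 ± 15.4 FPKM in Mito-T cells and 156 ± 11.3 FPKM in Ctrl cells, and mt-Ty, the tyrosine tRNA, 93.7 ± 3.69 FPKM in Mito-T cells and 91.8 ± 4.61 FPKM in Ctrl cells. Their plus-strand neighbour mt-Tw, the tryptophan tRNA, averaged 35.8 ± 3.51 FPKM in Mito-T cells and 41.2 ± 11.5 FPKM in Ctrl cells (SD, n = 3 each). The groups overlapped in all of these genes. The remaining minus-strand tRNA genes were lower: mt-Tp, the proline tRNA, spanned 44.1 to 68.1 FPKM, mt-Tq 0.995 to 3.93 FPKM and mt-Ts1 0.0971 to 0.432 FPKM over the 6 libraries.

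The 3 tRNA genes with an unadjusted limma p under 0.05 all lie on the plus strand, and were singled out after their values were seen. mt-Tr, the arginine tRNA, had 4.64, 4.22 and 4.12 FPKM in Mito-T libraries, against 2.35, 2.92 and 3.85 FPKM in Ctrl libraries. These groups did not overlap, with a log2 change of 0.41 (95% interval 0.09 to 0.73) and an adjusted limma p of 0.242. The values rest on an estimated 2.72 to 8.58 fragments a library, and the Ctrl libraries were the shallower ones by the same estimate. The part of depth in this difference was not tested.

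mt-Tm, the methionine tRNA, had 31.1, 22.8 and 33.8 FPKM in Mito-T libraries, against 17.4, 21.6 and 23.9 FPKM in Ctrl libraries. Mito-T 2 lay below Ctrl 3, and the adjusted limma p was 0.296 for a log2 change of 0.45 (95% interval 0.06 to 0.85). mt-Tl2, the second leucine tRNA, had 34.6, 31.5 and 25.3 FPKM in Mito-T libraries, against 18.5, 28.8 and 19.5 FPKM in Ctrl libraries. Ctrl 2 lay above Mito-T 3, and the adjusted limma p was 0.341 for a log2 change of 0.45 (95% interval 0.02 to 0.88). The sequences of mt-Tr (chrM:9808-9875) and mt-Tl2 (chrM:11671-11741) are given with the anticodon in capitals, to set beside the 4 highest tRNA genes. Anticodons were marked where a T stood before and an A or G after them, which held for 19 of 22 tRNA genes and not for mt-Tm.
mt-Tr: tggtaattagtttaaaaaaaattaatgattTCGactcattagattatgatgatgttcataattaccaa
mt-Tl2: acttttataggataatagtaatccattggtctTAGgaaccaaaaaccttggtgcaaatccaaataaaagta

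The other plus-strand tRNA genes stood low. mt-Th, the histidine tRNA, varied most among those above 5 FPKM, with 23.6, 10.2 and 10.0 FPKM in Mito-T libraries, against 9.12, 17.4 and 12.7 FPKM in Ctrl libraries. mt-Tt and mt-Tk lay between 5.44 and 10.0 FPKM, mt-Ti between 2.85 and 5.26 FPKM, and mt-Td, mt-Tg and mt-Tv between 0.478 and 2.95 FPKM over the 6 libraries. mt-Tf lay under 1 FPKM in all 6 libraries. mt-Ts2 had 0.148 to 0.187 FPKM in Mito-T libraries and 0.236 to 0.253 FPKM in Ctrl libraries, values worth less than 1 fragment, so no direction is read from them.

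The tRNA genes punctuate the mRNAs, and the ends of the mRNAs reflect this. Within their annotated ends, 10 of the 13 protein genes hold a complete stop codon and 3 end in a single T. That T becomes a stop codon when the mRNA receives its poly(A) tail. The TAG stop codons of mt-Nd1 (to chrM:3707) and mt-Nd2 (to chrM:4951) run into mt-Ti (from chrM:3706) and mt-Tw (from chrM:4950). Both tRNA genes open with the AG of that codon, so the counts follow the annotation, and the ends of the cut mRNAs were not measured. The last bases of mt-Co3 (chrM:9375-9390), mt-Nd4 (chrM:11529-11544) and mt-Cytb (chrM:15273-15288) are shown for this reason beside those of mt-Co1 (chrM:6855-6872), with the encoded part of the stop codon in capitals. Start codons vary as well: 9 genes open with ATG, while mt-Nd1 opens with GTG, mt-Nd2 with ATA, mt-Nd3 with ATT and mt-Nd5 with ATC.
mt-Co3: tattgatgaggatctT
mt-Nd4: acaggcctgacaataT
mt-Cytb: ctaaaattatatccaT
mt-Co1: tatgtaaaagtaaaaTAA

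The genes with and without a complete stop codon in the annotation were not tested against each other. mt-Co3 and mt-Cytb lay in the second tier and mt-Nd4 in the third, with log2 changes of -0.03, 0.15 and 0.11. Those of mt-Cytb and mt-Nd4 lay within the range of the other 10 protein genes, 0.02 to 0.19, and that of mt-Co3 lay below it.

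The nuclear genes that make, process and translate mtDNA transcripts were read from the same fit. Of 102 listed symbols 97 were tested, and limma called 0 of them, beside 1.12% of all genes tested. An unadjusted limma p under 0.05 was met by 6 of the 97 (2 higher and 4 lower in Mito-T cells), beside 13.9% of all genes tested. Their median log2 change was -0.03, against -0.01 over all genes tested, and 32 of the 97 (33.0%) were positive, beside 48.0% of all genes tested. The groups did not overlap for 15.5% of the 97 (4 with Mito-T higher and 11 lower), beside 21.0% of all genes tested. The list was not tested as a set.

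Among the 19 genes of mtDNA transcription, replication and nucleoid, 0 were called. Polrmt, the polymerase, averaged 5.34 ± 0.651 FPKM in Mito-T cells and 5.97 ± 0.540 FPKM in Ctrl cells, with a log2 change of -0.14 (95% interval -0.37 to 0.09). Tfam, which packs mtDNA and bends its promoters, averaged 6.04 ± 0.513 FPKM in Mito-T cells and 6.31 ± 0.904 FPKM in Ctrl cells. Tfb2m, which opens the promoter, averaged 8.91 ± 0.165 FPKM in Mito-T cells and 9.19 ± 0.451 FPKM in Ctrl cells (SD, n = 3 each). All 3 sets of values overlapped between the groups. Polg, the replicative polymerase, had the smallest p of this list, at 3.82 ± 0.214 FPKM in Mito-T cells and 4.36 ± 0.253 FPKM in Ctrl cells, with an adjusted limma p of 0.393.

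Of 44 tested genes of RNA processing, modification and decay, 0 were called. Lrpprc, which with Slirp holds mtDNA mRNAs stable, averaged 11.1 ± 0.364 FPKM in Mito-T cells and 11.0 ± 0.767 FPKM in Ctrl cells, a log2 change of 0.02 (95% interval -0.14 to 0.18). Slirp averaged 5.16 ± 0.163 FPKM in Mito-T cells and 6.47 ± 1.39 FPKM in Ctrl cells (SD, n = 3 each), with no overlap and an adjusted limma p of 0.423. Tbrg4, an RNA-binding protein of the FASTK family, had the smallest p, at 5.77 ± 0.314 FPKM in Mito-T cells and 6.96 ± 0.564 FPKM in Ctrl cells. Its log2 change was -0.23 (95% interval -0.41 to -0.05), with an adjusted limma p of 0.239.

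For translation, 0 of 15 factors and 0 of 19 tested aminoacyl-tRNA synthetase genes were called. Oxa1l, which inserts mtDNA-encoded proteins into the inner membrane, averaged 12.4 ± 0.130 FPKM in Mito-T cells and 13.4 ± 0.712 FPKM in Ctrl cells, with an adjusted limma p of 0.494. Gars, the glycine-tRNA synthetase of both cytosol and mitochondria, averaged 51.7 ± 1.49 FPKM in Mito-T cells and 57.6 ± 2.55 FPKM in Ctrl cells, with an adjusted limma p of 0.272. These were the members with the smallest p of their lists.

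**Figure D5:**
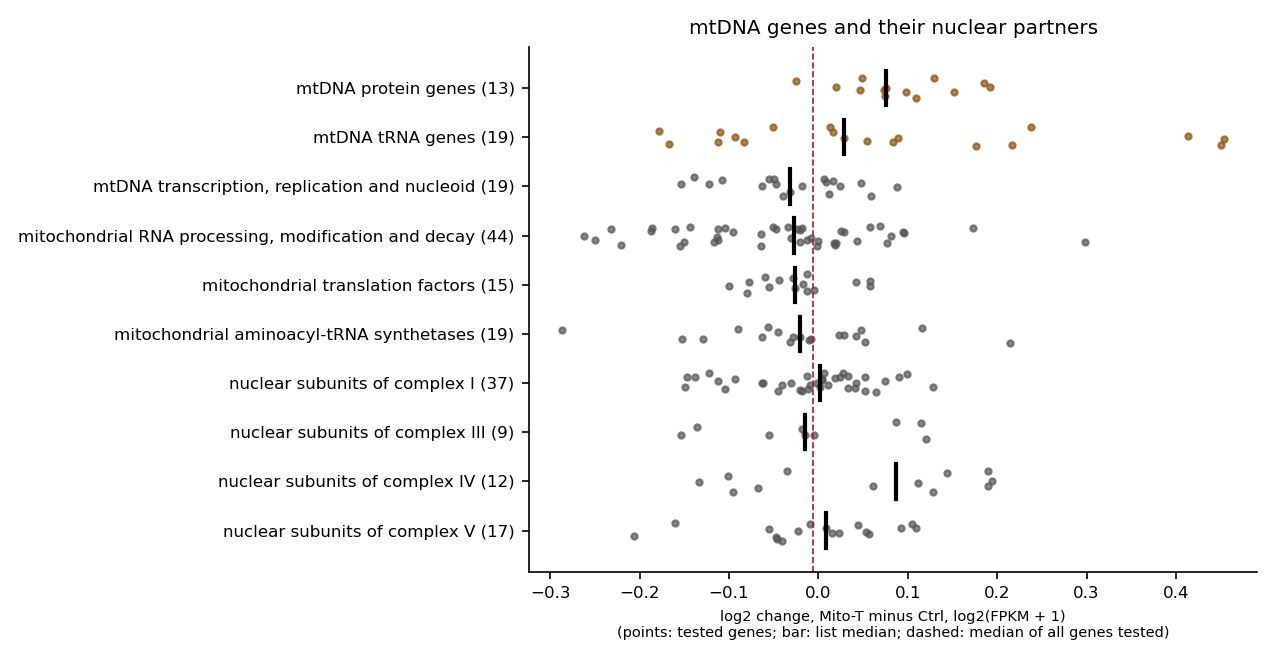
Log2 change (Mito-T minus Ctrl, log2(FPKM + 1)) of the tested mtDNA protein and tRNA genes and of the lists of nuclear partner genes, with 1 point per gene, a bar at each list's median and a dashed line at the median of all genes tested (-0.01). The mtDNA protein genes lie at a median of 0.08 and the list medians of nuclear partners between -0.03 and 0.09.

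The respiratory complexes join mtDNA subunits to nuclear ones, and 75 of 79 listed nuclear subunit genes of complexes I, III, IV and V were tested. Limma called 0 of the 75, beside 1.12% of all genes tested, and 5 had an unadjusted p under 0.05, beside 13.9% of all genes tested. Their median log2 change was 0.00, against 0.08 for the mtDNA protein genes. By complex the nuclear medians were 0.00 for complex I, -0.02 for complex III, 0.09 for complex IV and 0.01 for complex V, as the plot of partner genes shows. Ndufs1, an iron-sulphur subunit of complex I, averaged 10.5 ± 0.147 FPKM in Mito-T cells and 9.49 ± 0.326 FPKM in Ctrl cells, with an adjusted limma p of 0.348. Uqcrq, a small subunit of complex III, averaged 45.8 ± 0.614 FPKM in Mito-T cells and 51.1 ± 2.48 FPKM in Ctrl cells, with an adjusted limma p of 0.257.

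Cox6c, a subunit of complex IV, averaged 72.4 ± 3.32 FPKM in Mito-T cells and 63.2 ± 5.35 FPKM in Ctrl cells, with an adjusted limma p of 0.309. Atp5g1, a gene of the rotor ring of complex V, averaged 15.1 ± 0.122 FPKM in Mito-T cells and 17.6 ± 1.36 FPKM in Ctrl cells (SD, n = 3 each), with an adjusted limma p of 0.227. In each of these 4 genes, named for the smallest p of their lists, the groups did not overlap. Mito-T was higher for Ndufs1 and Cox6c and lower for Uqcrq and Atp5g1. Of the 75 nuclear subunit genes, 9.33% did not overlap (5 with Mito-T higher and 2 lower), beside 21.0% of all genes tested. Limma thus called 0 of the mtDNA genes tested and 0 of their nuclear partners tested.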

How the data were processed

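The authors deposited 1 value per gene and library for 55335 identifiers, read here as FPKM from the values, since the headers name no unit. The tools named are STAR 2.5.3a, StringTie 1.3.1c and FastQC 0.11.5, with build GRCm38, per the submitters' processing notes, and their settings are not stated there. Symbols and transcript sequences came from GENCODE M21, which matched 55154 identifiers. Of the low values of a library, 22.6% to 24.9% were whole multiples of the worth of 1 fragment (tolerance 0.02). Whole reads were thus not recovered. Depth was estimated within a set range, since the fit repeats above that range.

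Genes that reached 1 FPKM in 3 libraries or more were tested. The log2(FPKM + 1) values were fitted by group in limma 3.58.1 under R 4.3.3, where the empirical Bayes step used its trend and robust options. Changes are Mito-T minus Ctrl, and this scale understates those of low genes. P-values are two-sided with Benjamini-Hochberg adjustment over the 12639 genes tested. A gene was called at an adjusted p under 0.05. The code was tested on simulated data. Sums got no test. Nuclear copies were found by shared 31-base words and aligned with Biopython 1.88 where 100 or more words were shared.

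All mtDNA genes are named. Up to 6 nuclear copies with most shared words, the member of each list with the smallest p, and Polrmt, Tfam, Tfb2m, Lrpprc, Slirp, Gfap, Aqp4, Cdh5 and Pecam1 were named by rule. Members and lists were chosen with earlier results of these data known. Alternatives were no filter, a filter at a mean of 5 FPKM, pseudocounts of 0.1 and 0.01, TMM (without weights), quantile normalization, TPM, scaling without mtDNA genes, plain empirical Bayes, copies added to mtDNA genes, a replicate block and each library left out.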

Additional observations from a re-analysis of the deposited data

How the results depend on the processing

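In each of 17 alternatives, 0 mtDNA genes, 0 genes of the expression machinery and 0 nuclear complex subunits were called. The smallest adjusted limma p of an mtDNA gene was 0.0741, for mt-Tr without Ctrl replicate 3. The count over all genes was 141, and 13 with no filter. Leaving out a library gave 14 to 88: 14, 16 and 28 without Mito-T replicates 1, 2 and 3, and 84, 22 and 88 without Ctrl replicates 1, 2 and 3, with fewer samples. Deviations of same-numbered libraries correlated at 0.102, 0.0463 and 0.300, and those of differently numbered libraries at -0.203 to 0.123. These values do not settle whether the numbers pair the libraries. The labels state no pairing, and the main fit used none. With a replicate block, 56 genes and 0 mtDNA genes were called. Of 368 other values of single mtDNA genes, 364 did not change sign. Quantile normalization, which by construction sets the top-ranked mt-Co1 equal in all libraries (a change of 0), reversed 4: mt-Rnr2 (0.00074), mt-Nd3 (-0.010), mt-Nd6 (-0.066) and mt-Te (-0.050). The cause was not tested. Leaving out a library reversed 27 of 204, in genes whose log2 change lay near 0 or varied widely: mt-Co2 (-0.023 to 0.11), mt-Nd6 (-0.10 to 0.092), mt-Rnr1 (-0.083 to 0.028), mt-Rnr2 (-0.094 to 0.024), mt-Te (-0.10 to 0.10), mt-Tg (-0.074 to 0.14), mt-Th (-0.30 to 0.30), mt-Ti (-0.11 to 0.21), mt-Tk (-0.20 to 0.089), mt-Tl1 (-0.0090 to 0.13), mt-Tq (-0.068 to 0.47), mt-Tv (-0.32 to 0.050) and mt-Tw (-0.32 to 0.042). The number of protein genes with a positive change was 9 under quantile normalization, 10 to 12 with a library left out and 12 otherwise. With 3 libraries a group and under 10 fragments behind 10 tRNA genes, small changes were not detectable.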
